A study of Mus musculus with 19 samples.

Results

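The immediate-early response genes are described here by 10 members: Fos, Fosb, Jun, Junb and Atf3 of the AP-1 group, the zinc-finger factors Egr1, Klf2 and Klf6, and Ier2 and Dusp1. They were chosen by name, with earlier results of these data known. Each was read from the RefSeq accession with the highest mean count over 19 libraries. All 10 have 1 accession each in the deposited table of 33862 accessions, and all 10 were among the 11830 accessions that passed the filter on low counts. RNA came from primary lin-Sca+cKit+ cells, the sort gate of hematopoietic stem and early progenitor cells, of C57BL/6 mice. The leukemic Idh2 R140Q;Flt3-ITD mice carry a mutant isocitrate dehydrogenase with an internal tandem duplication of the Flt3 receptor and gave 4 libraries under AG-221, an inhibitor of mutant IDH2, and 3 under vehicle (IDH2-FLT3 vehicle). The leukemic Tet2-/-;Flt3-ITD mice (Flt3-IDT in the sample labels) lack the TET2 dioxygenase, carry a Flt3 duplication too and gave 4 libraries under 5-Aza, a hypomethylating drug, and 4 under vehicle (TET2-FLT3 vehicle). Wild-type (WT) mice gave 4 libraries and had no treatment, so every leukemic group differs from WT by genotype, disease and dosing at once.

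Gavage with AG-221 took place 2 times daily over 4 to 5 weeks. Its dose was 100 mg/kg alone and 40 mg/kg where it was combined, and the labels do not say which one a library had. 5-Aza was given in 4 cycles of 21 days, with intraperitoneal doses of 5 mg/kg on 5 of the days, and the series text also names decitabine. Both leukemic arms of each genotype share the same alleles. The labels name no promoter for the Tet2 deletion, no ages and no separate animals, so the spread behind each p-value is that among libraries and may be technical.

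Immediate-early genes are transcribed within minutes of a stimulus, without new protein synthesis, by factors that already sit in the cell, among them SRF with its ELK partners and CREB. Growth factor receptors such as Flt3 and Kit reach them through the ERK kinases, and stress and inflammatory signals through p38 and JNK. Most encode transcription factors of short half-life, and their RNA is known to be induced by tissue dissociation and sorting.

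Assigned counts per library ran from 9635795 to 20383132. The vehicle libraries V3-2 and V5-2 had the most. Their Rn45s share, from the precursor of ribosomal RNA, was 0.808% in V3-2 (V3: 2.39%) and 0.866% in V5-2 (V5: 2.63%), V3 and V5 being the columns with the same number. The labels do not say whether a shared number marks a shared animal. V1 of TET2-FLT3 vehicle had the fewest counts and 9.50% Rn45s. No pair of libraries within a group was a copy. Of the sort markers, Kit had at most 0.151 CPM and Ly6a was listed at 0 in all libraries. Both have several accessions (2 and 6), a class in which 61.7% of accessions were at 0 in every library against 18.7% of accessions of other genes, so these entries do not check the gate. Other stem and progenitor genes were present, Hlf at 305, 32.2, 426, 191 and 863 CPM and Flt3 at 308, 155, 229, 387 and 408 CPM on average in AG-221, IDH2-FLT3 vehicle, 5-Aza, TET2-FLT3 vehicle and WT cells. CPM are counts scaled by library totals multiplied by TMM factors. They compare a gene between libraries, and FPKM, which divide by length, are used to compare genes.

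By FPKM the members covered a wide range, and the order was similar at its ends in all 5 groups. Klf6, a factor of the Krüppel family, and Ier2, a small nuclear protein, took the first 2 places everywhere. Klf6 averaged 38.6 ± 15.9 FPKM with AG-221, 39.0 ± 14.5 in IDH2-FLT3 vehicle, 20.5 ± 5.99 with 5-Aza, 35.0 ± 10.8 in TET2-FLT3 vehicle and 26.9 ± 3.39 FPKM in WT (SD over libraries). Ier2 averaged 19.3 ± 8.29, 30.3 ± 36.7, 20.6 ± 4.36, 32.8 ± 19.3 and 20.5 ± 2.48 FPKM in the same groups, within the spread of Klf6 in all but AG-221 and WT. Fosb, the AP-1 factor with the lowest level in 4 groups, stayed between 0.0953 and 0.257 FPKM on average, and was at 0 counts in 4 libraries. With 5-Aza Atf3 was lower still, at 0.0522 ± 0.105 FPKM. Egr1 was the member that changed place most between WT and leukemic vehicle cells. It stood at 0.404 ± 0.216 FPKM in IDH2-FLT3 vehicle, the ninth place, and 0.466 ± 0.474 FPKM in TET2-FLT3 vehicle, also the ninth, against 3.82 ± 0.977 FPKM and the sixth place in WT.

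**Figure D1:**
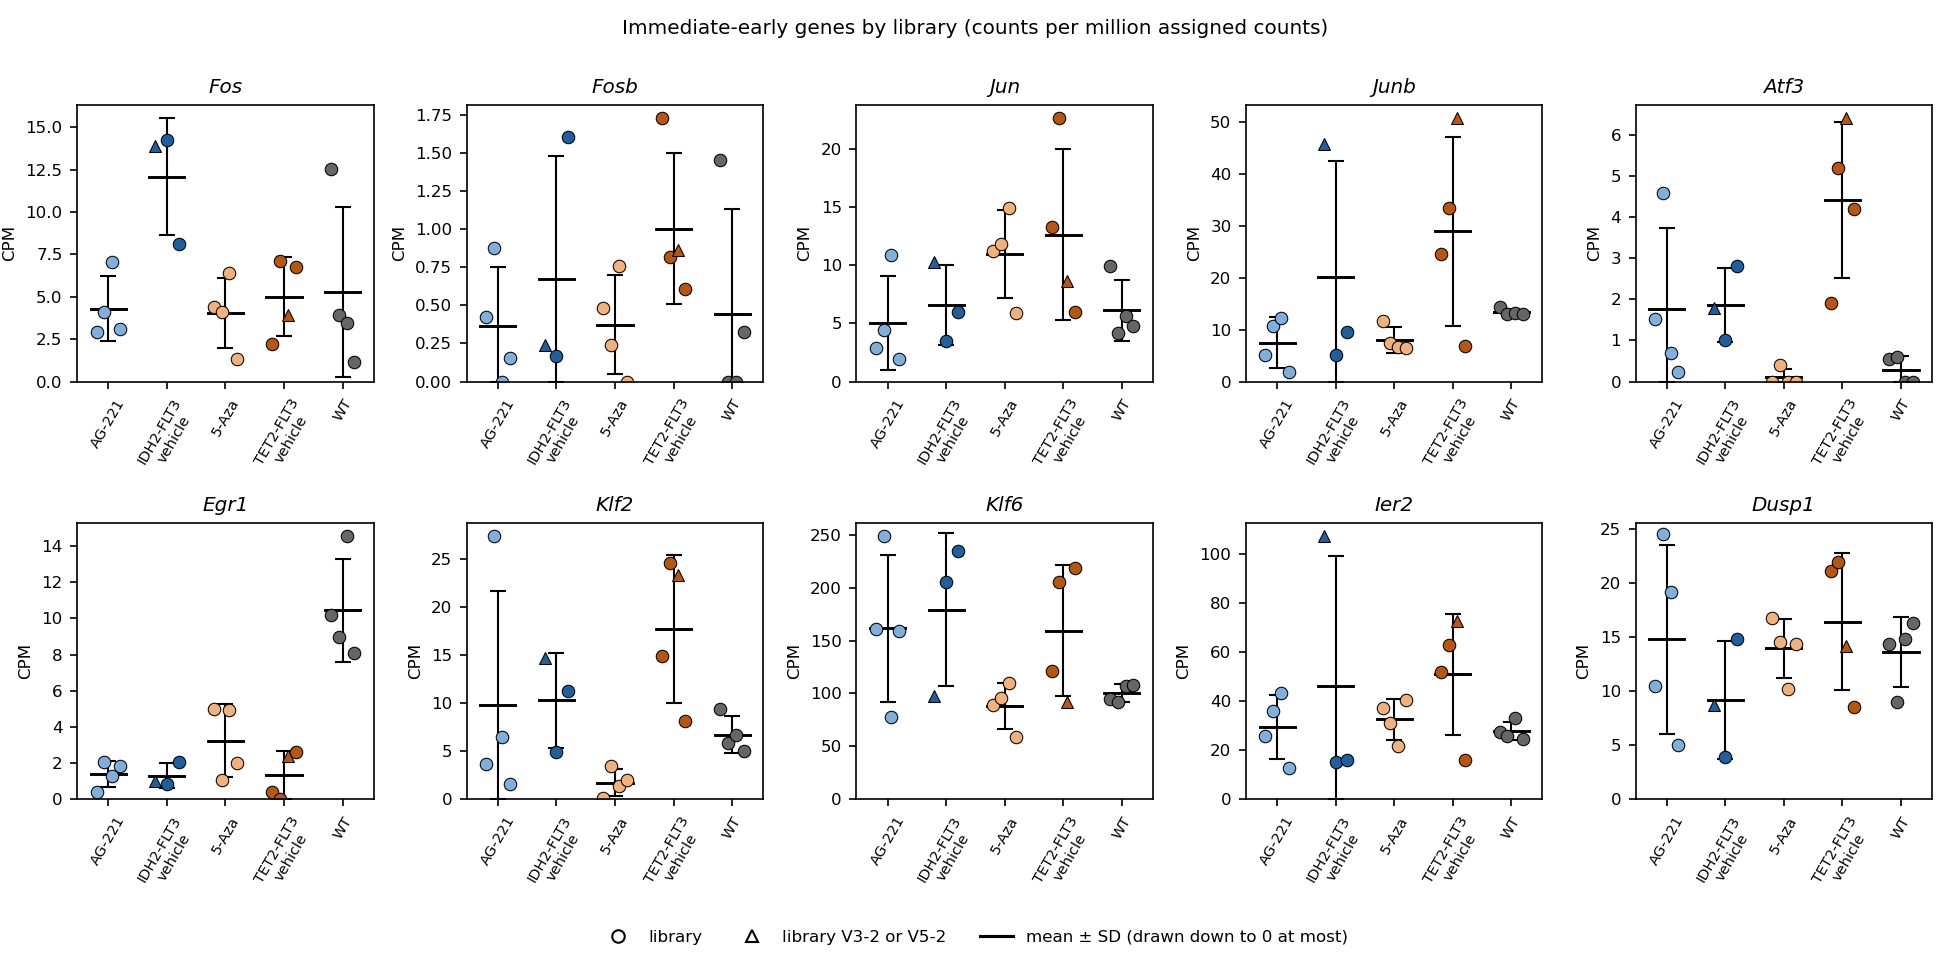
Levels of the 10 immediate-early genes in CPM (y axis, linear, own scale per gene) in each library (points) of AG-221, IDH2-FLT3 vehicle, 5-Aza, TET2-FLT3 vehicle and WT cells, with mean and SD (bars, drawn down to 0 at most). Egr1 is at 8.06 to 14.5 CPM in WT and at or under 5.02 CPM in every other library, and the triangles (V3-2 and V5-2) are the highest points for Junb and Ier2.

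Read as a set, few members passed the test (edgeR quasi-likelihood, adjusted p under 0.05). Fitted changes were above 0 in 8 of 10 members for each leukemic vehicle group against WT. They were below 0 in 8 of 10 for AG-221 against vehicle and in 9 of 10 for 5-Aza against vehicle. AG-221 against WT had 5 above and 5 below, and 5-Aza against WT 3 above and 7 below. Members share libraries, so these counts are not independent. The share of all tested accessions above or below 0 was not counted. Below, rose and fell mean passing the test. For IDH2-FLT3 vehicle against WT 0 rose, where 10.1% of all tested accessions rose, and 1 fell (Egr1), where 10.4% fell and 20.5% passed in either direction. The members' median log2 fold change there was 0.60, against 0.02 over all tested. For TET2-FLT3 vehicle against WT 1 rose (Atf3), where 4.43% of all tested rose, and 1 fell (Egr1), where 5.71% fell and 10.1% passed in all. The median was 0.96, against 0.07 over all tested. For AG-221 against vehicle 0 passed in edgeR and 0 in DESeq2, and 2 had an unadjusted p under 0.05, where 4.39% of all tested rose, 5.29% fell and 9.68% passed in all (median -0.27, against -0.00). For 5-Aza against vehicle 2 fell (Atf3 and Klf2), where 1.45% of all tested fell, and 0 rose, where 0.431% rose and 1.88% passed in all (median -0.75, against -0.05).

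AG-221 against WT gave 1 that fell (Egr1), where 1.67% of all tested fell and 2.71% passed in all. 5-Aza against WT gave 0 in edgeR and DESeq2 and 2 at an unadjusted p under 0.05, where 1.72% of all tested passed. The vehicle groups against each other gave 0 in edgeR, in DESeq2 and at the unadjusted threshold, where 4.28% passed. The difference of drug responses gave 0 in edgeR, 2 in DESeq2 and 2 at the unadjusted threshold, where 0.228% passed. Comparisons that share a WT or vehicle group are not independent.

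Groups that did not overlap were counted too. In IDH2-FLT3 vehicle against WT 2 members did not overlap (Atf3 above, Egr1 below), where 37.1% of all tested did not, and in TET2-FLT3 vehicle against WT 2 (Atf3 above, Egr1 below), where 18.5% did not. In 5-Aza against vehicle 2 did not (Atf3 and Klf2, below), where 7.09% of all tested did not, and in AG-221 against vehicle 1 (Fos, below), where 23.8% did not. Between the vehicle groups 1 did not (Fos, higher in IDH2-FLT3), where 8.59% did not. Below WT without overlap were 2 members with AG-221 (Egr1 and Junb), where 8.85% of all tested were below and 15.8% did not overlap in all. With 5-Aza 3 were (Egr1, Junb and Klf2), where 13.4% were below and 25% did not overlap in all. In bulk RNA, fewer expressing cells and less RNA per cell cannot be told apart.

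**Figure D2:**
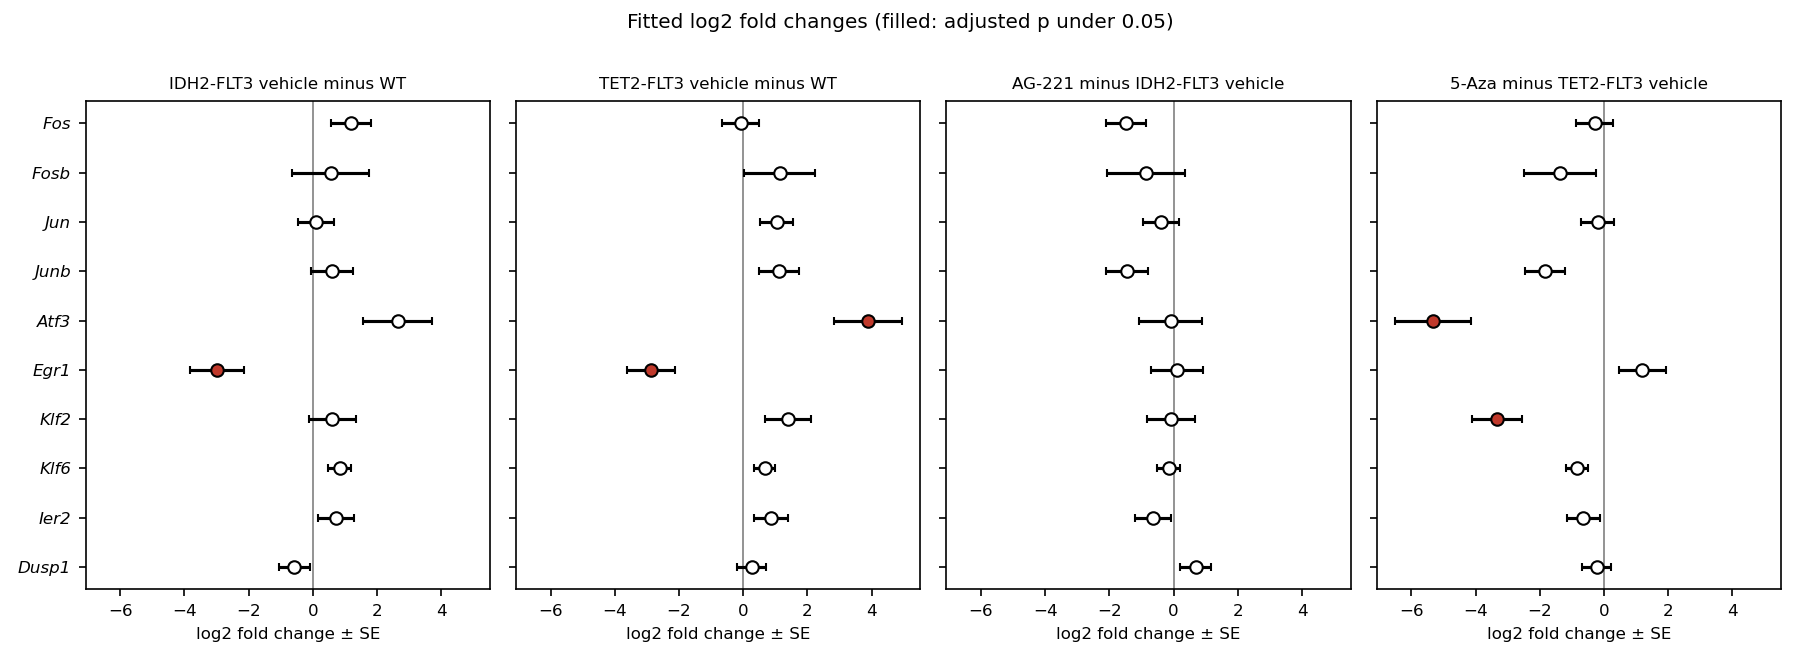
Fitted log2 fold changes (x axis, points, with SE) of the 10 genes for IDH2-FLT3 vehicle minus WT, TET2-FLT3 vehicle minus WT, AG-221 minus IDH2-FLT3 vehicle and 5-Aza minus TET2-FLT3 vehicle, filled where the adjusted p was under 0.05. Egr1 is at -2.99 and -2.87 in the first pair of panels, and Atf3 and Klf2 are at -5.32 and -3.34 in the last.

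Egr1, a zinc-finger factor that restrains the division and migration of blood stem cells, was lower in leukemic cells than in WT. It had 1.01, 0.844 and 2.09 CPM in V3-2, V3 and V9 of IDH2-FLT3 vehicle, against 10.2, 8.99, 14.5 and 8.06 CPM in the 4 WT libraries. TET2-FLT3 vehicle gave 0.384, 0, 2.38 and 2.64 CPM in V19, V1, V5-2 and V5. Its 0 counts in V1 allow up to 0.409 CPM (3 counts, counting error only). No leukemic vehicle library reached the lowest WT library. Egr1 fell in IDH2-FLT3 vehicle (log2 fold change -2.99 ± 0.85 SE, adjusted p = 0.0179, edgeR quasi-likelihood test with Benjamini-Hochberg adjustment over all 11830 accessions) and in TET2-FLT3 vehicle (-2.87 ± 0.75, adjusted p = 0.0209) relative to WT. Both comparisons use the same 4 WT libraries. The IDH2-FLT3 call was lost without V3-2 (adjusted p = 0.0687), without V3 (0.0787), without V3-2 and V5-2 (0.0560) and with each added to its numbered partner as 1 library (0.0612). The TET2-FLT3 call was lost without wt3 (adjusted p = 0.0606).

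Under both drugs Egr1 was also lower than in every WT library. With AG-221 it had 0.421, 2.05, 1.31 and 1.85 CPM in AG12, AG13, AG1 and AG8, overlapping IDH2-FLT3 vehicle. Against WT, Egr1 fell with AG-221 (log2 fold change -2.88 ± 0.76, adjusted p = 0.0449). That call was lost when any of the 8 libraries was left out (AG12, AG13, AG1, AG8 and wt1 to wt4, adjusted p 0.0719 to 0.137). With 5-Aza Egr1 had 5.02, 1.05, 4.94 and 1.99 CPM in AZ10, AZ11, AZ16 and AZ17. All 4 were under the WT libraries, and AZ10 and AZ16 were above every TET2-FLT3 vehicle library while the other two were within their range. The difference from WT did not pass in the fit of all groups (-1.68 ± 0.72, adjusted p = 0.248). It passed when 5-Aza and WT were fitted alone (adjusted p = 0.0177), in limma-voom (0.00253) and on log2(FPKM + 1) (0.00330). Egr1 did not pass between drug and vehicle in either genotype (AG-221 0.10 ± 0.80, adjusted p = 0.944, and 5-Aza 1.19 ± 0.72, adjusted p = 0.529).

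Atf3, a stress-induced AP-1 partner that can repress inflammatory genes, was higher in both vehicle-treated leukemias than in WT, which passed for TET2-FLT3, and was at or near 0 with 5-Aza. TET2-FLT3 vehicle gave 1.92, 5.19, 6.403 and 4.19 CPM in V19, V1, V5-2 and V5, against 0.537, 0.604, 0 and 0 CPM in WT. The 0 counts in wt3 and wt4 allow up to 0.248 and 0.242 CPM. All TET2-FLT3 vehicle libraries lay above all WT libraries, and Atf3 rose (log2 fold change 3.89 ± 1.06, adjusted p = 0.0252). The call was lost without wt3 (adjusted p = 0.0743) or wt4 (0.0736), the libraries at 0. IDH2-FLT3 vehicle gave 1.78, 1.01 and 2.81 CPM in V3-2, V3 and V9, again above all WT libraries, but the difference did not pass (2.65 ± 1.07, adjusted p = 0.0843). It passed in DESeq2 (adjusted p = 0.0432) and on log2(FPKM + 0.1) (0.0398).

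With 5-Aza, Atf3 had 5 counts in AZ11 (0.405 CPM) and 0 counts in AZ10, AZ16 and AZ17, which allow up to 0.243, 0.228 and 0.271 CPM. TET2-FLT3 vehicle libraries held 20 to 156 counts. The groups did not overlap, and Atf3 fell (log2 fold change -5.32 ± 1.19, adjusted p = 0.0210). The call was lost without AZ10 (adjusted p = 0.0818), AZ16 (0.0943) or AZ17 (0.0709). AG-221 libraries were spread over 1.52, 4.60, 0.705 and 0.231 CPM in AG12, AG13, AG1 and AG8, around the levels of IDH2-FLT3 vehicle (-0.09 ± 0.99, adjusted p = 0.960). The difference between the AG-221 and 5-Aza responses of Atf3 did not pass in edgeR (5.23 ± 1.56, adjusted p = 0.140) and passed in DESeq2 (5.39, adjusted p = 0.0177).

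Klf2, a Krüppel-family factor known for quiescence in T cells and blood vessels, was the other member that fell with 5-Aza. It had 0.162, 3.48, 1.37 and 1.99 CPM in AZ10, AZ11, AZ16 and AZ17, against 14.9, 24.6, 23.4 and 8.18 CPM in V19, V1, V5-2 and V5 of TET2-FLT3 vehicle. The highest 5-Aza library was under the lowest vehicle library (log2 fold change -3.34 ± 0.77, adjusted p = 0.0258). The call was lost without AZ10 (adjusted p = 0.0713), AZ16 (0.110), AZ17 (0.0722) or V1 (0.0547), and without V3-2 and V5-2 (0.0509). WT libraries had 9.43, 5.82, 6.69 and 5.00 CPM, all above the 5-Aza libraries. The difference of 5-Aza from WT did not pass (-1.94 ± 0.74, adjusted p = 0.195), though it did with those groups alone (0.0251) and in limma-voom (0.00287). AG-221 gave 3.71, 27.4, 6.45 and 1.62 CPM in AG12, AG13, AG1 and AG8, and IDH2-FLT3 vehicle 14.7, 4.98 and 11.2 CPM in V3-2, V3 and V9, with full overlap. The difference between the drug responses of Klf2 did not pass in edgeR (3.26 ± 1.07, adjusted p = 0.171) and passed in DESeq2 (3.29, adjusted p = 0.0387).

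Atf3 and Klf2 are the members that passed under a drug that lowers DNA methylation, so the 250 bases before their annotated starts are shown, from RefSeq on GRCm38.p6 (the counts were made on mm9). Capitals mark the GC box GGGCGG and the EGR element GCGNGGGCG, each searched on both strands, and in Klf2 a capital run covers an EGR element and a GC box that overlap, as the longer run in Atf3 covers a pair of GC boxes.
Atf3, chr1:191183334-191183583, minus strand: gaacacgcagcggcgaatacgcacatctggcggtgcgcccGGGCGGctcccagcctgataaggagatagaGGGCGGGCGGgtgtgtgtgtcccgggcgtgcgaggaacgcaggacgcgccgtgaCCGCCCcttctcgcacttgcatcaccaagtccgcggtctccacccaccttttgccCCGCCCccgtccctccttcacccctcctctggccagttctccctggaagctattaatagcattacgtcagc
Klf2, chr8:72318812-72319061, plus strand: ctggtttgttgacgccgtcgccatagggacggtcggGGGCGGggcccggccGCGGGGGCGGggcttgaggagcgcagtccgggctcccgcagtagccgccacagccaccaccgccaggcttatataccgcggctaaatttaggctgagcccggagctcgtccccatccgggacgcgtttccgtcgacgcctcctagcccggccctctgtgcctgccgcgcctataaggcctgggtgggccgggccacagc
The Atf3 window held 5 GC boxes and 24 CpG dinucleotides, and the Klf2 window 2 GC boxes, 1 EGR element and 29 CpG. The median of all 32851 windows of that length was 6 CpG. A GC box stood in 32.7% of those windows and an EGR element in 4.70%. Counts above that median were also found for members that did not pass, with 15 in Fos and Jun, 19 in Fosb, 20 in Junb, 21 in Klf6 and 28 in Dusp1. The full 8-base cAMP response element (TGACGTCA), which 1.55% of windows held, was found in Dusp1 alone of the 8 members counted here, and the AP-1 element (TGANTCA, 6.75% of windows) in 0 of 8. The letter matches describe these windows and do not locate bound factors, and DNA methylation was not analysed here.

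The AP-1 members Fos, Fosb, Jun and Junb passed in none of the comparisons in the edgeR fit of all 19 libraries. With other settings, Fos passed for IDH2-FLT3 vehicle against WT without wt1 (log2 fold change 2.08, adjusted p = 0.0286), and Junb for 5-Aza against WT with those groups alone (-0.74, adjusted p = 0.0469), for AG-221 against WT in limma-voom (-1.32, adjusted p = 0.0217) and for 5-Aza against vehicle in DESeq2. Fos, the classical partner of Jun, was highest in IDH2-FLT3 vehicle. AG-221 gave 2.95, 4.11, 7.05 and 3.08 CPM in AG12, AG13, AG1 and AG8, against 13.9, 14.3 and 8.10 CPM in V3-2, V3 and V9 of IDH2-FLT3 vehicle. The highest AG-221 library was under the lowest vehicle library, and the difference did not pass (log2 fold change -1.49 ± 0.63, unadjusted p = 0.0269, adjusted p = 0.117). Fos had 4.37, 4.13, 6.38 and 1.35 CPM with 5-Aza and 2.21, 7.10, 3.94 and 6.76 CPM in TET2-FLT3 vehicle (V19, V1, V5-2, V5). In WT it had 12.6, 3.93, 3.47 and 1.13 CPM, so that wt1 alone reached the IDH2-FLT3 vehicle range. Between the vehicle groups, all IDH2-FLT3 libraries lay above all TET2-FLT3 libraries (adjusted p = 0.245).

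Jun, the partner that binds DNA with Fos, was highest in V1. AG-221 gave 2.87, 4.4, 10.9 and 1.93 CPM (AG12, AG13, AG1, AG8) and IDH2-FLT3 vehicle 10.3, 3.46 and 5.94 CPM (V3-2, V3, V9). 5-Aza gave 11.3, 11.8, 14.9 and 5.87 CPM (AZ10, AZ11, AZ16, AZ17) and TET2-FLT3 vehicle 13.3, 22.7, 8.62 and 5.95 CPM (V19, V1, V5-2, V5). WT libraries had 9.89, 4.16, 5.62 and 4.76 CPM, which overlapped every other group. Fosb, which had at most 1.73 CPM (V19), overlapped in every comparison, with 0 to 0.880 CPM under AG-221, 0.169 to 1.61 in IDH2-FLT3 vehicle, 0 to 0.759 under 5-Aza, 0.608 to 1.73 in TET2-FLT3 vehicle and 0 to 1.46 CPM in WT.

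Junb, an AP-1 factor that limits myeloid growth in mice, had the tightest WT values and among the widest vehicle values. AG-221 gave 5.14, 10.7, 12.3 and 1.77 CPM in AG12, AG13, AG1 and AG8, against 45.7, 5.15 and 9.55 CPM in V3-2, V3 and V9 of IDH2-FLT3 vehicle. The fitted difference (log2 fold change -1.44 ± 0.66, adjusted p = 0.148) was set by V3-2, without which it was 0.01 (adjusted p = 0.996). 5-Aza gave 11.7, 7.36, 6.61 and 6.50 CPM in AZ10, AZ11, AZ16 and AZ17, against 24.6, 33.4, 50.7 and 6.89 CPM in V19, V1, V5-2 and V5 of TET2-FLT3 vehicle. These overlapped through V5, and the difference did not pass in edgeR (-1.84 ± 0.63, adjusted p = 0.180), while it did in DESeq2 (-1.87, adjusted p = 0.0461). The WT libraries had 14.3, 13.1, 13.2 and 12.9 CPM, above all AG-221 and all 5-Aza libraries, with differences that did not pass (adjusted p = 0.645 and 0.572).

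Klf6, a widely expressed Krüppel-family factor, was split by library in the vehicle groups. AG-221 gave 161, 249, 78.1 and 159 CPM in AG12, AG13, AG1 and AG8, and IDH2-FLT3 vehicle 97.7, 206 and 234 CPM in V3-2, V3 and V9. WT libraries had 95.1, 91.9, 107 and 108 CPM, so that V9 and V3 lay above every WT library and V3-2 within their range. Klf6 did not pass for IDH2-FLT3 vehicle against WT (0.84 ± 0.36, adjusted p = 0.104). It did without V3-2 and V5-2 (1.15, adjusted p = 0.0270), without V3-2 alone (0.0457), with a correction for GC content (0.0347) and in limma-voom (0.0111). 5-Aza gave 89.6, 95.4, 110.1 and 58.8 CPM in AZ10, AZ11, AZ16 and AZ17, against 121, 205, 92.4 and 219 CPM in V19, V1, V5-2 and V5 of TET2-FLT3 vehicle (-0.85 ± 0.34, adjusted p = 0.280). The overlap came from V5-2.

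Ier2 and Dusp1 passed in no comparison in edgeR, in the fit of all libraries or under the alternatives run. Dusp1 is the phosphatase that inactivates p38, JNK and ERK. Ier2 had 25.6, 36.0, 43.3 and 12.9 CPM with AG-221 (AG12, AG13, AG1, AG8) and 107, 15.2 and 16.0 CPM in V3-2, V3 and V9 of IDH2-FLT3 vehicle. It had 37.2, 31.1, 21.7 and 40.5 CPM with 5-Aza and 51.96, 62.9, 72.7 and 16.0 CPM in V19, V1, V5-2 and V5 of TET2-FLT3 vehicle, against 27.4, 25.8, 33.1 and 24.8 CPM in WT. V3-2 was thus 7.04-fold above V3, and V5-2 4.55-fold above V5. Dusp1 ranged over 5.01 to 24.5 CPM with AG-221, 3.97 to 14.8 in IDH2-FLT3 vehicle, 10.3 to 16.8 with 5-Aza, 8.58 to 22.0 in TET2-FLT3 vehicle and 8.99 to 16.3 CPM in WT.

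Genes linked to the members by signaling, induction or stress were examined as 4 lists, whose choice was made with earlier results of these data known. Signaling itself was not measured in these libraries. Changes are log2 fold changes ± SE with edgeR adjusted p-values. Of the listed feedback and output genes of ERK signaling, 12 of 15 were tested. In IDH2-FLT3 vehicle 0 of 12 rose and 6 fell relative to WT, where 10.1% of all tested accessions rose and 10.4% fell (median log2 fold change -1.58 against 0.02 over all tested). In TET2-FLT3 vehicle 0 rose and 5 fell, where 4.43% of all tested rose and 5.71% fell (median -1.54 against 0.07). Etv5, an ETS factor induced by ERK, averaged 0.935 ± 0.878 CPM in IDH2-FLT3 vehicle and 1.55 ± 0.636 CPM in TET2-FLT3 vehicle, against 21.7 ± 6.67 CPM in WT (SD over libraries; adjusted p = 0.000878 and 0.00218). Spry4, a Sprouty inhibitor of the pathway, averaged 0.0830 ± 0.0844 and 0.0921 ± 0.0875 CPM, against 3.53 ± 1.03 CPM in WT (adjusted p = 0.00403 and 0.00484). Spred1, an inhibitor of Ras to Raf signaling, fell in IDH2-FLT3 vehicle to 31.7 ± 11.0 CPM, against 94.1 ± 8.14 CPM in WT (adjusted p = 0.000892). Dusp6, the ERK phosphatase, fell in TET2-FLT3 vehicle to 15.4 ± 4.45 CPM, against 87.4 ± 26.5 CPM in WT (adjusted p = 0.00534). Spry4 and Dusp6 did not pass in TET2-FLT3 vehicle in limma-voom (adjusted p = 0.0604 and 0.0920).

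With 5-Aza 3 of these 12 feedback and output genes rose and 0 fell relative to TET2-FLT3 vehicle, where 0.431% of all tested rose and 1.45% fell (median 0.94 against -0.05 over all tested). Etv5 averaged 15.7 ± 10.7 CPM with 5-Aza and 1.55 ± 0.636 CPM in vehicle (log2 fold change 3.31 ± 0.68, adjusted p = 0.0141). Dusp6 averaged 69.6 ± 55.5 and 15.4 ± 4.45 CPM (adjusted p = 0.0297), and Dusp4, a nuclear phosphatase of the same kinases, 3.10 ± 2.98 and 0.242 ± 0.101 CPM (adjusted p = 0.0405). The Etv5 call was lost without AZ10 (adjusted p = 0.0558) or AZ16 (0.0646), and those of Dusp6 and Dusp4 without any of AZ10, AZ16, V19, V1, V5-2 and V5 (up to 0.150 and 0.164). In limma-voom none of the 3 passed (Etv5 0.245, Dusp6 0.422, Dusp4 0.633). Dusp6 and Dusp4 also did not pass on log2(FPKM + 1) (adjusted p = 0.2003 and 0.152), on log2(FPKM + 0.1) (0.185 and 0.124), without V3-2 and V5-2 (0.0976 and 0.0862) or with those added to V3 and V5 (0.0598 and 0.0732), and Dusp6 not with the compared groups alone (0.143). With AG-221, 0 rose and 1 fell, where 4.39% of all tested rose and 5.29% fell (median 0.59 against -0.00), which was Dusp7, at 17.7 ± 4.65 CPM against 44.7 ± 12.2 CPM in vehicle (adjusted p = 0.0130), a call lost without V3-2 (0.0778) or V3 (0.0581), with those groups alone (0.0729) and with the numbered libraries added (0.0506).

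Other immediate-early genes (28 of 42 tested) did not share 1 direction. In IDH2-FLT3 vehicle 5 of 28 rose and 4 fell relative to WT, where 10.1% of all tested rose and 10.4% fell (median -0.30). Klf4, a Krüppel-family factor of monocytes, averaged 73.3 ± 42.3 CPM against 6.80 ± 3.25 CPM in WT (log2 fold change 3.43 ± 0.62, adjusted p = 0.000943). The AP-1 gene Fosl2 rose by 2.33 ± 0.46 (adjusted p = 0.00178) and Gadd45b, a stress gene, by 1.59 ± 0.34 (0.00316). Hbegf, a growth factor of the EGF family, was at 2.89 ± 1.95 CPM against 9.96 ± 0.653 CPM in WT (adjusted p = 0.00394). Dusp2, a phosphatase, changed by -1.79 ± 0.46 (0.00992; 0.0525 without V3), and Zfp36l1, an RNA-decay factor, by -1.54 ± 0.50 (0.0343), a call lost without V3-2, V3, wt1, wt3 or wt4 (up to 0.148) and with those groups alone (0.0594). In TET2-FLT3 vehicle 1 of 28 rose, Dusp5 (3.08 ± 0.75, adjusted p = 0.0135), and 0 fell, where 4.43% of all tested rose and 5.71% fell (median 0.21). Without V5-2 it did not pass (1.44, adjusted p = 0.0952), nor without wt4 (0.0517), nor on log2(FPKM + 1) (0.116) or log2(FPKM + 0.1) (0.117).

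With AG-221 3 of these 28 genes rose and 3 fell relative to vehicle, where 4.39% of all tested rose and 5.29% fell (median -0.06), while 5-Aza changed 0 of 28 in edgeR, where 1.88% passed (median -0.41). Hbegf rose by 2.04 ± 0.40 (adjusted p = 0.00817), Socs3, an inhibitor of cytokine signaling, by 2.37 ± 0.64 (0.0290) and Ier3, a regulator of cell survival, by 1.502 ± 0.38 (0.0230). Fosl2 changed by -2.24 ± 0.46 (adjusted p = 0.0107), Klf4 by -2.41 ± 0.60 (0.0219) and Gadd45b by -1.36 ± 0.34 (0.0219). None of the 6 passed without V3-2 (adjusted p 0.0607 to 0.137) or with those groups alone (0.0713 to 0.0996), and Hbegf, Ier3, Socs3, Klf4 and Gadd45b did not pass without V3 either. Without AG1 the calls of Socs3 (0.0595), Klf4 (0.0504) and Gadd45b (0.0550) were also lost, and without AG12 that of Klf4 (0.0529).

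Heat-shock genes (13 of 15 tested) were examined because their RNA also answers handling. In IDH2-FLT3 vehicle 3 of 13 rose relative to WT, where 10.1% of all tested rose (median 0.81): Hspa8, the constitutive HSP70 chaperone (1.32 ± 0.37, adjusted p = 0.0159), Hsph1, its exchange factor (1.15 ± 0.33, 0.0176), and Chordc1, an HSP90 partner (0.85 ± 0.29, 0.0417). In TET2-FLT3 vehicle Hspa8 (1.65 ± 0.35, adjusted p = 0.00610) and Hsph1 (0.97 ± 0.31, 0.0493) rose, 2 of 13 where 4.43% of all tested rose (median 0.72). Of these, Hspa8 in TET2-FLT3 vehicle passed with each library left out (adjusted p up to 0.0279). In IDH2-FLT3 vehicle the calls were lost for Hspa8 without V3 (0.0672) or wt4 (0.0567), for Hsph1 without V3-2, wt3 or wt4 (up to 0.0640) and for Chordc1 without V3, V9, wt1, wt3 or wt4 (up to 0.236). In TET2-FLT3 vehicle Hsph1 was lost without any library but wt2 (up to 0.149), with those groups alone (0.104), in limma-voom (0.102) and on log2(FPKM + 1) (0.0663), and Chordc1 in IDH2-FLT3 vehicle was lost with RLE factors (0.0518) and on log2(FPKM + 1) (0.109). The drugs changed 0 in edgeR, where 9.68% of all tested passed with AG-221 and 1.88% with 5-Aza (medians -0.59 with AG-221 and -0.16 with 5-Aza). Of the upstream kinases and factors (16 of 21 tested), Mapkapk2, a kinase under p38, rose in both leukemic vehicle groups (1.46 ± 0.38, adjusted p = 0.0109, and 1.17 ± 0.36, 0.0408), and did not pass without V3-2 (0.171) in IDH2-FLT3 or without V5-2 (0.118), V19, wt1, wt2, wt3 or wt4 in TET2-FLT3, nor on log2(FPKM + 1) in either (0.101 and 0.165). Rps6ka1, a kinase under ERK, rose in IDH2-FLT3 vehicle (3.81 ± 1.06, 0.0161) and fell with AG-221 (-3.99 ± 1.09, 0.0290), neither of which passed without V3-2 (0.136 and 0.212). The rise was also lost without wt3 or wt4 (0.0513 and 0.0514), and the fall without V3, AG12, AG13, AG1 or AG8 (0.0536 to 0.0737). In all, 2 of 16 rose in IDH2-FLT3 vehicle and 1 in TET2-FLT3 vehicle, where 10.1% and 4.43% of all tested rose, 1 fell with AG-221, where 5.29% fell, and 0 passed with 5-Aza in edgeR, where 1.88% passed. The median of the list was 0.20 and 0.25 in the vehicle groups, -0.29 with AG-221 and -0.02 with 5-Aza.

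The summed monocyte markers were lower with 5-Aza, as Atf3 and Klf2 were. The summed level of 8 monocyte genes (Csf1r, Ly86, Ccr2, Cx3cr1, F13a1, Fn1, Ms4a6c and Lyz2) was 395 to 820 CPM with 5-Aza and 871 to 2018 CPM in TET2-FLT3 vehicle. It was 600 to 2732 CPM with AG-221, 1773 to 6207 CPM in IDH2-FLT3 vehicle and 440 to 854 CPM in WT. Of the 6 tested, 1 fell with 5-Aza, where 1.45% of all tested accessions fell, and 3 with AG-221, where 5.29% fell. Against WT, all 6 rose in IDH2-FLT3 vehicle, where 10.1% of all tested rose, and 3 in TET2-FLT3 vehicle, where 4.43% rose. Within groups the order of libraries by this sum did not always follow that of Atf3 and Klf2. V3 had the highest sum of IDH2-FLT3 vehicle (6207 CPM) and its lowest Atf3 and Klf2 levels (1.01 and 4.98 CPM). V5 had the highest of TET2-FLT3 vehicle (2018 CPM) and its lowest Klf2 level (8.18 CPM). V9 had the lowest sum of IDH2-FLT3 vehicle (1773 CPM) and its highest Atf3 level (2.81 CPM). AG1 had the lowest sum of AG-221 (600 CPM), while Atf3 and Klf2 were lowest in AG8 (0.231 and 1.62 CPM). AZ17 had the highest sum of 5-Aza (820 CPM), while both genes were highest in AZ11 (0.405 and 3.48 CPM). Of the WT libraries, wt1 had the highest Klf2 level (9.43 CPM) but not the highest sum. Some extremes matched. AG13 had the highest sum of AG-221 (2732 CPM) and its highest Atf3 and Klf2 levels (4.60 and 27.4 CPM). V19 had the lowest sum of TET2-FLT3 vehicle (871 CPM) and its lowest Atf3 level (1.92 CPM). AZ10 had the lowest sum of 5-Aza (395 CPM) and its lowest Klf2 level (0.162 CPM). In WT, wt2 had the highest sum (854 CPM) and the highest Atf3 level (0.604 CPM). Fn1 and F13a1 were at or near 0 in all groups but for F13a1 at 3.61 CPM in IDH2-FLT3 vehicle, and the other 6 were detected in every library. The part of monocyte RNA in these results was not tested. Stem and progenitor markers (with Kit and Ly6a near or at 0 throughout) summed to 538 to 895 CPM with AG-221, 99.1 to 387 in IDH2-FLT3 vehicle, 696 to 896 with 5-Aza, 458 to 884 in TET2-FLT3 vehicle and 1059 to 1752 CPM in WT, where Egr1 was also highest. Of the 6 tested stem and progenitor markers, 4 fell in IDH2-FLT3 vehicle relative to WT, where 10.4% of all tested fell. In TET2-FLT3 vehicle 1 fell, where 5.71% fell. Relative to vehicle, 3 rose with AG-221, where 4.39% of all tested rose, and 0 passed with 5-Aza, where 1.88% passed. On average Hlf, Flt3, Meis1, Mecom and Procr were lower in both leukemic vehicle groups than in WT. Cd34 was higher, at 15.5 CPM in IDH2-FLT3 vehicle and 15.2 CPM in TET2-FLT3 vehicle, against 9.40 CPM in WT. Hlf was the largest of these markers in WT (863 CPM). The part of the stem and progenitor markers in the Egr1 result was not tested. The other marker lists are counted next between leukemic vehicle and WT, where 10.1% of all tested rose and 10.4% fell in IDH2-FLT3 and 4.43% rose and 5.71% fell in TET2-FLT3. Of 6 tested B-cell genes all 6 fell in both genotypes, of 4 erythroid genes all 4 fell in both, and of 8 neutrophil genes 3 rose in IDH2-FLT3 and 0 passed in TET2-FLT3. Of 5 megakaryocyte genes 3 fell in IDH2-FLT3 and 4 in TET2-FLT3, of 5 T and NK cell genes 4 and 2 fell, and of 3 endothelial and stromal genes 0 passed in either.

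Spread between libraries was the other feature of these genes. Within groups, the median SD of the members on the log2 CPM scale was 1.04 with AG-221, 0.79 in IDH2-FLT3 vehicle, 0.76 with 5-Aza, 0.76 in TET2-FLT3 vehicle and 0.39 in WT. Over all tested accessions the medians were 0.47, 0.61, 0.35, 0.73 and 0.28 in the same groups. The vehicle values depended on V3-2 and V5-2. Without them the members' median was 0.73 against 0.34 over all tested in IDH2-FLT3 vehicle (2 libraries). In TET2-FLT3 vehicle (3 libraries) it was 0.87 against 0.64. Pooled over groups, the members' median SD was 0.98 on log2 CPM and 0.55 on log2(FPKM + 1). The fitted biological coefficient of variation was above the trend for accessions of like abundance in 9 of 10 members, the exception being Dusp1 (44.4% against 44.6%). The share of all tested accessions above their trend was not counted. The coefficient was close to the trend for Jun (51.4% against 49.8%), Fos (56.6% against 53.1%) and Klf6 (33.8% against 31.2%). It was 67.3% against 48.7% for Klf2, 59.1% against 43.6% for Junb and 51.2% against 36.4% for Ier2. In WT, Junb varied by 4.84% (coefficient of variation of CPM), Klf6 by 8.09% and Ier2 by 13.4%, whereas Fos varied by 95.1%, with wt1 high.

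Some libraries were high or low for most members. AG13 was above its group mean for 10 of 10 members and wt1, AZ10 and V1 for 8, while V3, AG8 and wt2 were above theirs for 2. The same share over all tested accessions was not counted, so shifts of whole libraries are not set apart here. Averaged over members, the deviation from the group mean was 1.02 log2 units in AG13, 0.82 in wt1, 0.00 in AZ10, 0.06 in V1 and -0.90 in AG8. The labels give no measure of the time or handling between dissection and lysis, so the part of handling in the spread was not tested.

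**Figure D3:**
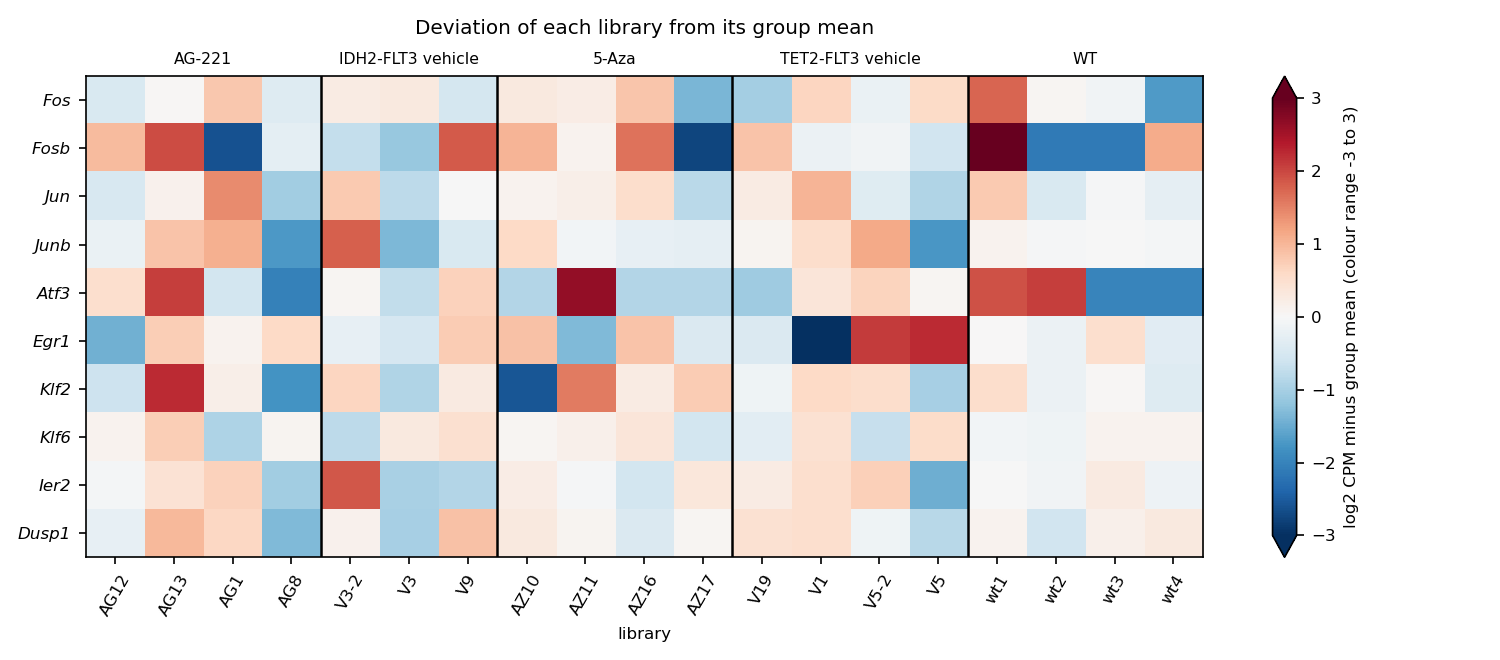
Deviation of log2 CPM from the group mean (colour, range -3 to 3) for each gene (rows) in each of 19 libraries (columns) grouped as AG-221, IDH2-FLT3 vehicle, 5-Aza, TET2-FLT3 vehicle and WT. AG13 is above its group mean in 10 of 10 genes, and V3-2 is high for Junb and Ier2 where Klf6 is low.

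Between the columns that share a number, the members with the highest and the lowest GC content lay at opposite ends. Junb was 8.82-fold higher in V3-2 than V3 and 7.31-fold higher in V5-2 than V5, at percentiles 98.6 and 98.9 of all tested accessions. Ier2 lay at percentiles 97.8 and 97.3, and Klf2 was 2.93-fold and 2.85-fold higher. Klf6 went the opposite way, with 0.475-fold and 0.423-fold the level of the partner library. The transcripts of Junb, Klf2 and Ier2 hold 62.6%, 61.6% and 60.9% GC, percentiles 98.8, 97.9 and 97.1, and that of Klf6 42.4%, percentile 12.1. Over tested accessions with a GC value (2323 in each class), the median log2 ratio ran from -0.44 in the lowest of 5 GC classes to 0.69 in the highest for V3-2 over V3, and from -0.55 to 0.66 for V5-2 over V5. Members between these did not follow GC content in order. Fos, at 51.9% GC, had ratios of 0.975 and 0.586, Atf3, at 52.2%, 1.73 and 1.52, and Egr1, at 53.6%, 1.19 and 0.905, while Jun had 2.94 and 1.45, Dusp1 2.18 and 1.65, and Fosb 1.35 and 1.39. GC content moved with these ratios, and its part in them was not tested. The GC-corrected edgeR fit covers comparisons of groups and not these ratios. Egr1 passed in that fit (adjusted p = 0.0117 and 0.0137 for the leukemic vehicle groups against WT). Atf3 (0.0195 for TET2-FLT3 vehicle against WT, 0.0175 for 5-Aza against vehicle) and Klf2 (0.0161 for 5-Aza against vehicle) passed too. Jun, Junb and Dusp1 share exon sequence with genes on the opposite strand (Junos, Prdx2 and Ergic1), and since the strand setting of the counting is not given in the sources used here, their reads are uncertain. Prdx2 was lower in V3-2 than V3 (222 against 345 CPM) and in V5-2 than V5 (392.1 against 638 CPM), where Junb was higher.

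**Figure D4:**
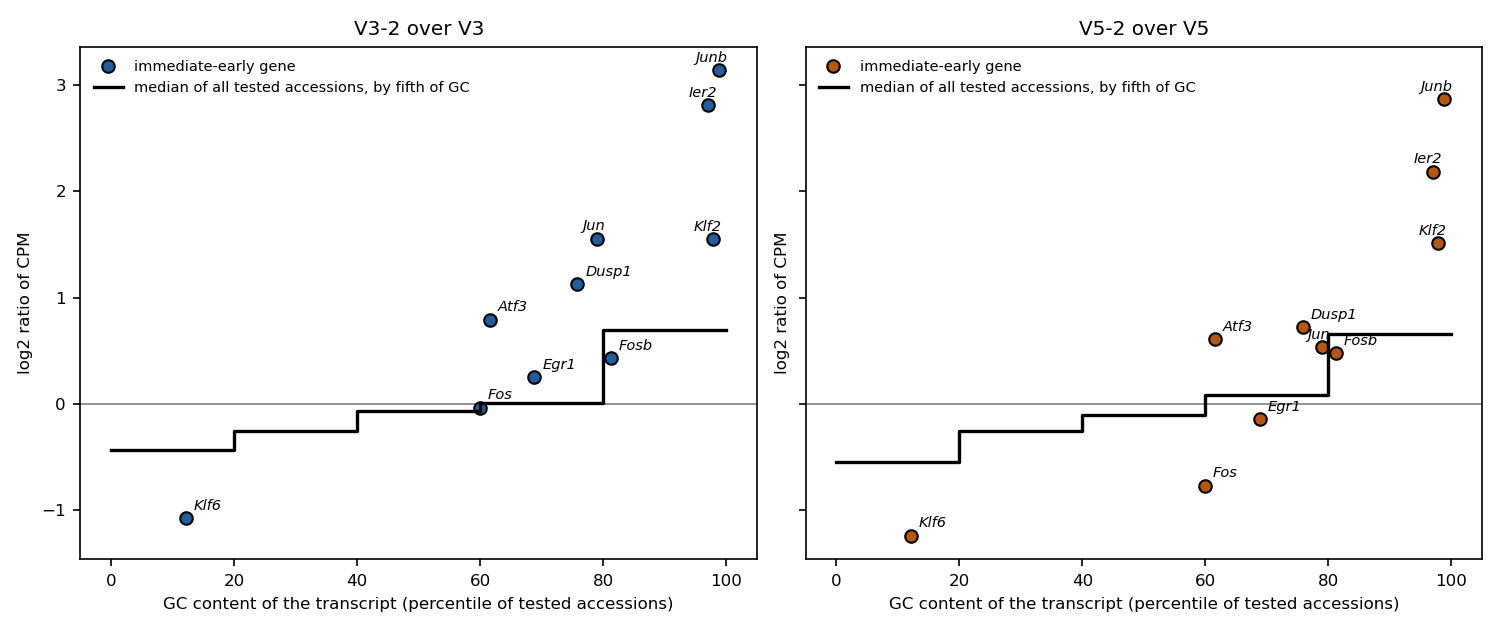
Log2 ratio of CPM (y axis) of V3-2 over V3 and V5-2 over V5 for each gene (points) against the percentile of its transcript's GC content (x axis), with the median of all tested accessions in each of 5 GC classes (line). Junb, Ier2 and Klf2 lie at the top right and Klf6 at the bottom left in both panels.

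The genes whose library-to-library pattern was most like the members' mean were Sik1, Pak4, Tspan17, Ppp2r5b, Gch1, Fzd1, Ptger1 and Ddit4. Likeness was the Pearson correlation, over 19 libraries, of log2 CPM centred on the group mean, and ran from 0.739 for Ddit4, a stress-induced inhibitor of mTOR, to 0.768 for Sik1, a kinase induced through CREB. All 8 had more RNA in V3-2 than V3 and in V5-2 than V5. The members' mean by which they were picked differed the same way, so this is no separate result. That mean deviation was 0.37 in V3-2 and -0.68 in V3, and 0.36 in V5-2 and -0.31 in V5. The transcripts of the 8 genes hold 48.8% (Gch1) to 60.1% GC (Pak4). Gch1 was at GC percentile 42.9 of tested accessions, and the others at 76.3 (Sik1) to 95.7 (Pak4). These libraries share depth and composition effects, and the values are given as a description.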

How the data were processed

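RNA was sequenced from sorted cells in 19 libraries, as polyA RNA amplified with a SMARTer Ultra Low Input kit, per the labels' protocols. The authors deposited raw counts per RefSeq accession and FPKM. The submitters' processing notes name STAR 2.4.0f1, featureCounts of Subread 1.4.5-p1 and mm9, and how FPKM were made is not given in the sources used here. Assigned counts were 9635795 to 20383132 per library. Accessions were named from the RefSeq table, and the 377 without a name held 3.94% of counts. The members and lists were chosen with earlier results of these data known.

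Counts were fitted in edgeR 4.0.16 (R 4.3.3) with the default low-count filter, TMM factors, 5 group means and quasi-likelihood tests, with Benjamini-Hochberg adjustment over 11830 accessions and a threshold of 0.05. The procedure was tested on simulated data. The genes named from each list are at most the 3 called genes per direction with the smallest p in each of the first 4 comparisons, and the genes most like the members are the 8 with the highest centred correlation and a mean CPM of at least 5. Limits for 0 counts use 3 counts and cover counting error only. Alternatives were RLE factors, no filter, a filter of 5 CPM in 3 libraries, DESeq2 1.42.0, limma 3.58.1 (voom), fits of only the groups in a comparison, log2 FPKM with pseudocounts of 1 and 0.1, counts summed per gene, and libraries left out. Figures were drawn with matplotlib 3.10.9 in Python 3.11.15.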

Additional observations from a re-analysis of the deposited data

Results flagged for a closer look

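In 40 sets of 4 libraries (10 genes in 4 groups), the gap between the extreme library and its nearest neighbour was compared with the whole range, and 2 stood apart. Chance gives about 1 in 20. For Atf3 with 5-Aza the gap was 1 of the range, because AZ11 had 5 counts and the other libraries 0. For Junb with 5-Aza the gap was 0.836 of the range, with AZ10 at 11.7 CPM and the others at 6.50 to 7.36 CPM. The causes were not tested.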

How the results depend on the processing

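Alternatives with V3-2 and V5-2 added to their numbered partners and with GC-corrected offsets were chosen after seeing the data. For IDH2-FLT3 vehicle against WT, 1 member passed. The number was 2 in DESeq2, 2 in limma-voom, 2 on log2(FPKM + 0.1), 2 with GC correction and 0 with the numbered libraries added, and 0 to 2 with a library left out (Fos without wt1). For TET2-FLT3 vehicle against WT, 2 passed, with 1 under the 5 CPM filter, which removes Atf3, and 0 to 2 with a library left out. For 5-Aza against vehicle, 2 passed, with 3 in DESeq2 (Junb added), 1 under that filter, 1 without V3-2 and V5-2, and 0 to 2 with a library left out. For AG-221 against WT, 1 passed, with 4 in limma-voom (Atf3, Junb and Klf6 added) and 0 with any library left out. For 5-Aza against WT, 0 passed, with 3 in a fit of those groups alone (Egr1, Junb and Klf2), 2 in limma-voom and 1 on log2(FPKM + 1). For the difference of drug responses, 0 passed, with 2 in DESeq2. AG-221 against vehicle and the vehicle groups against each other gave 0 under each alternative run. The Junb difference of AG-221 from vehicle was -1.88 to 0.011 with a library left out, turning round without V3-2. The median pooled SD of the members was 0.98 log2 units, with 0.92 to 1.02 with a library left out, 0.92 without V3-2 and V5-2 and 0.55 on log2(FPKM + 1). Causes were not tested unless stated.

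Over all accessions, 1145 passed for AG-221 against vehicle, but 0 with those groups alone, 265 without V3-2 and V5-2 and 197 with them added to their partners. FPKM moved the split of calls: TET2-FLT3 vehicle against WT gave 524 higher and 675 lower on counts, and 304 and 1580 on log2(FPKM + 1). No paired analysis was possible because the count columns of the leukemic groups carry no replicate numbers from the labels. Members at a few counts, such as Fosb and Atf3, are limited by depth.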
